A study of Capra hircus with 12 samples.

Results

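The miRNAs described here came from the proximal part of the imprinted DLK1-DIO3 locus, which carries miR-493, miR-665 and the miRNAs antisense to RTL1. Members were all listed arms of miR-127, miR-136, miR-431, miR-432, miR-433, miR-493, miR-337, miR-665 and miR-370. This gave 8 miRNAs from 5 of these 9 names, namely chi-miR-136-5p, chi-miR-136-3p, both arms of miR-127 and of miR-493, miR-432-5p and miR-433, where chi marks the goat. Of all miRNAs listed, 300 were abundant enough to be tested, 7 members among them, and 76 were not, with 1 member. The other names were not analysed here. The rule matches names and uses no measured value.

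Secondary hair follicles (SHFs) are the small follicles that grow the cashmere of goats, and they pass together through growth (anagen), regression (catagen) and rest (telogen) within a year. Small RNA was sequenced from SHFs dissected from scapular skin of untreated Liaoning cashmere goats aged 1.5 years, with 1 female and 1 male library in each of 6 months. The 4 libraries of February and March stood for telogen, the 2 of May for early anagen, the 2 of September for mid-anagen and the 4 of November and December for catagen. How animals were combined into a library is not given in the sources used here, so a p-value measures the spread between these libraries. Female and male animals and the libraries made from them cannot be told apart within a month.

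In the DLK1-DIO3 locus the protein-coding genes DLK1, RTL1 and DIO3 are known to be expressed from the paternal chromosome, and the long non-coding RNAs and miRNAs from the maternal one. RTL1, a gene derived from a retrotransposon, is needed for the placenta, and the miRNAs transcribed from its opposite strand match the RTL1 transcript fully and can direct its cleavage. The miRNAs of the locus are typical of embryonic and mesenchymal tissue and of the brain. The RefSeq gene table at hand is of goat assembly ARS1.2, whereas reads were mapped to CHIR_2.0, so only the order of genes is used. The order on chromosome 21 was DLK1, MIR493, MIR665, RTL1 with MIR433, MIR127, MIR432 and MIR136 inside its span, then MIR3955 and MIR379, with DIO3 as the last. All 5 names with a listed arm had their gene there.

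The depth was 3135292 to 5788032 counts on miRNAs per library, so that a floor of 3 counts corresponded to a TPM between 0.518 and 0.957. TPM here is the count scaled to a total of 1000000 per library and is not divided by length, and mature miRNAs are of similar length. TMM factors, which correct for the composition of a library, ran from 0.813 to 1.29. Scaling by library totals instead moved the median log2 fold change of all 300 tested miRNAs from 0.07 to -0.46 from May to September and from 0.00 to 0.36 from catagen to telogen. Epithelial markers (7 listed miRNAs, miR-203 and the miR-200 family among them) summed to a TPM of 57100 to 96900 and dermal ones (9 listed, miR-199, miR-143 and miR-145 among them) to 118000 to 149000 over the 12 libraries. Leukocyte markers (4 listed) summed to 393 to 664, skeletal muscle markers (6 listed) to 1900 to 3610 and erythrocyte markers (2 listed) to 5.41 to 115.

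Together the 8 members held a TPM of 1028 in the male March library, which stood apart, and of 244 to 575 in each of the other 11. Results that rest on this library are therefore also given without it where they differed. In such bulk samples, fewer cells of a type and less RNA per cell cannot be told apart.

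miR-127-3p was the most abundant member, with a mean TPM of 239 ± 109 (SD, n = 12 libraries), rank 92 among the listed miRNAs and 54.2% of the members' mean total. miR-493-5p followed with 92.8 ± 50.8. miR-136-3p (29.6 ± 25.3), miR-493-3p (29.2 ± 16.1) and miR-136-5p (28.4 ± 18.7) lay close together, and their order is within the spread of the libraries. miR-432-5p (12.2 ± 7.41), miR-127-5p (7.60 ± 4.46) and miR-433 (2 ± 1.72) were scarce. By the filter of more than 5 CPM in at least 2 libraries 7 members were tested, 5 of them above the limit in all 12 libraries, miR-432-5p in 10 and miR-127-5p in 8. miR-433 exceeded it only in the male March library, had 1 to 23 counts per library and was not tested.

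**Figure D1:**
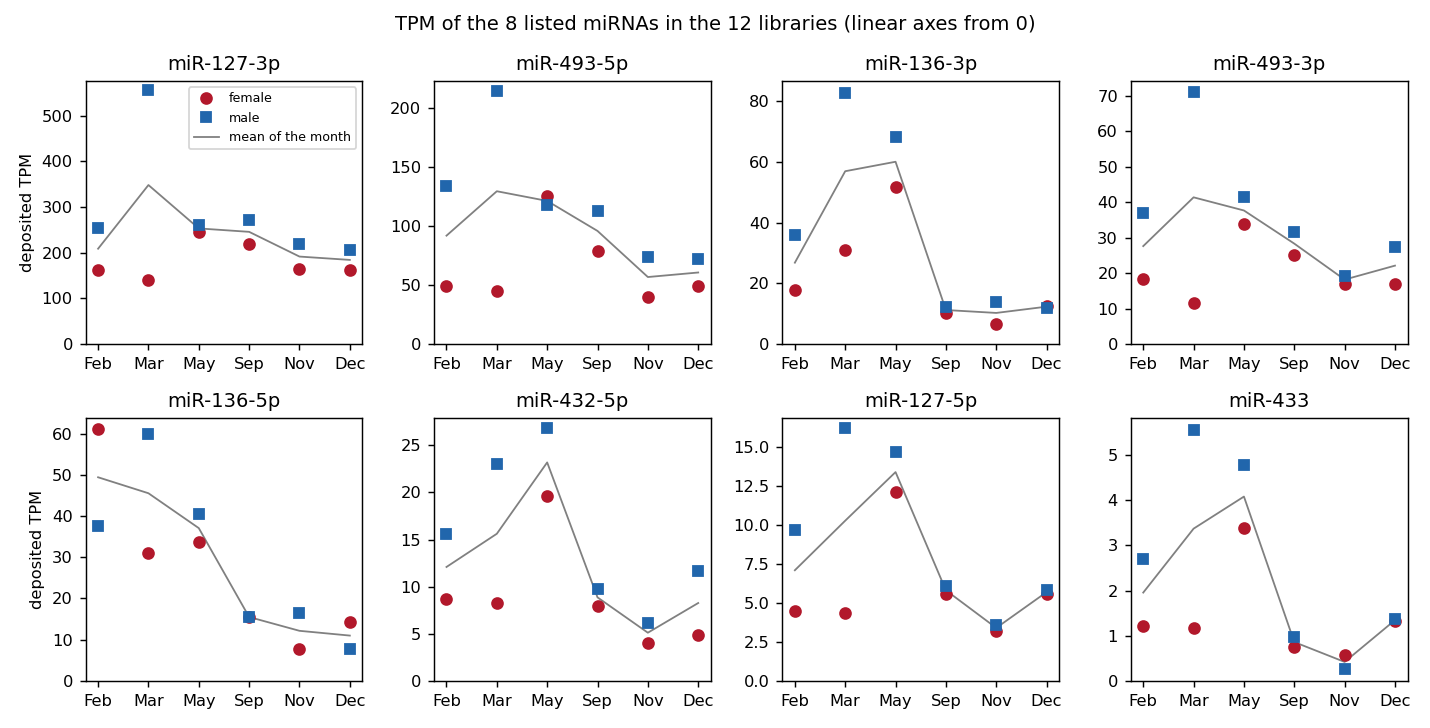
Deposited TPM (linear axes from 0) of the 8 members by month, with circles for female libraries, squares for male libraries and a line through the mean of each month. Both miR-136 arms lie higher from February to May than from September to December, and the male March library is the highest for 6 of the 8 members.

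Between phases the calls were of the miR-136 arms and, from catagen to May, of miR-432-5p. Between the sexes in telogen they were of the miR-127 and miR-493 arms, with miR-136-3p and miR-432-5p close to the threshold. A difference between the members in these patterns was not tested.

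miR-136, the last miRNA gene inside the span of RTL1, was high in telogen and May and low in September and catagen. The TPM of miR-136-5p was 61.2 (female) and 37.6 (male) in February, 31.0 and 60 in March, and 33.6 and 40.5 in May. It was 15.6 and 15.4 in September, 7.81 and 16.5 in November, and 14.2 and 7.76 in December. Every telogen and May library thus lay above every September and catagen library.
For miR-136-3p the TPM was 17.8 and 35.8 in February, 31.0 and 82.7 in March, and 51.7 and 68.3 in May, with the female value first. It was 10.4 and 12.1 in September, 6.66 and 13.9 in November, and 12.7 and 12.03 in December. Again every telogen and May library exceeded every September and catagen library.

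By edgeR's quasi-likelihood test, miR-136-5p rose 3.21-fold from catagen to telogen (log2 fold change 1.68 with a standard error of 0.29 and an adjusted p of 0.00138). miR-136-3p rose 2.77-fold (1.47, standard error 0.36, adjusted p = 0.00755). These are 2 of the 7 members tested, where 6.33% of all tested miRNAs were called higher. Their groups did not overlap, which in this direction held for 11% of tested miRNAs. Leaving out any 1 of the 8 libraries kept both calls. The lowest value for miR-136-3p was 1.04 without the male March library, and for miR-136-5p 1.47 without the female February library. A call required 2-fold or more and an adjusted p, over the 300 tested miRNAs, under 0.05.
The remaining members did not pass the test between these phases. Their log2 fold changes were 0.62 (standard error 0.35) for miR-432-5p, 0.50 (0.36) for miR-127-5p, 0.49 (0.39) for miR-493-5p, 0.34 (0.40) for miR-493-3p and 0.15 (0.31) for miR-127-3p. The median over the 7 members was 0.50, and 0.14 without the male March library.

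From catagen to May 3 members rose, where 7.67% of tested miRNAs were called higher. Their groups did not overlap, as for 29% of tested miRNAs in this direction. miR-136-3p rose 3.58-fold (log2 fold change 1.84, standard error 0.41, adjusted p = 0.00433), miR-136-5p 2.18-fold (1.12, standard error 0.34, adjusted p = 0.0204) and miR-432-5p 2.30-fold (1.20, standard error 0.41, adjusted p = 0.0358). The call of miR-136-3p was kept whichever library was left out. That of miR-136-5p was lost without the male May, the female November or the male December library, and was 0.95 at its lowest. That of miR-432-5p was lost in 5 of 6 such fits.
miR-432-5p, the neighbour of miR-136 within RTL1, had its highest monthly mean in May, with a TPM of 19.6 in the female and 26.8 in the male library. In February they were 8.64 and 15.5, in March 8.25 and 23.0, in September 7.96 and 9.77, in November 4.05 and 6.18, and in December 4.89 and 11.6. The May libraries lay above all 4 catagen libraries and overlapped those of telogen.

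From May to September 1 member fell, where 8.67% of tested miRNAs were called lower and 36.7% had groups that did not overlap in this direction. miR-136-3p decreased 3.69-fold (log2 fold change -1.89, standard error 0.50, adjusted p = 0.0126). With 2 libraries per group, leaving out 1 leaves a group with a single library. The call was lost without the male May (-1.72) and without either September library (-1.83 and -1.95), at fold changes about as large. Without the female May library the log2 fold change was -2.29. miR-136-5p stood at -0.73 (standard error 0.40, adjusted p = 0.179), and it was called at -1.25 (adjusted p = 0.0295) with scaling by library totals, under which 26.7% of tested miRNAs were called.
From telogen to September both miR-136 arms fell, miR-136-3p by 1.51 and miR-136-5p by 1.29 on the log2 scale (standard errors 0.45 and 0.36, adjusted p = 0.027 and 0.0197), where 4.67% of tested miRNAs were called lower and 21% had groups that did not overlap in this direction. Without the male March library miR-136-3p was still called (-1.14). Both calls were lost without either September library, at fold changes about as large (-1.45 and -1.57 for miR-136-3p, -1.35 and -1.23 for miR-136-5p). Neither was made when only these 2 phases were fitted (-1.51 and -1.30, adjusted p = 0.0821 and 0.0523).

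Marker lists moved with some of these comparisons. The erythrocyte list summed to 27.9 to 115 in telogen and 5.41 to 26.4 in catagen. The epithelial list summed to 81500 and 88700 in May and 57100 and 73000 in September, and the skeletal muscle list to 2110 and 2750 against 3390 and 3460. From May to September 1 of 7 epithelial, 1 of 9 dermal, 1 of 5 muscle and 1 of 4 leukocyte markers tested were called higher. Of all 300 tested miRNAs 29 were. From catagen to May 1 epithelial, 1 dermal and 1 muscle marker were called lower, as were 27 of all 300. From catagen to telogen 1 erythrocyte and 1 leukocyte marker were called higher and 1 epithelial marker lower, with 19 and 13 of all 300. From telogen to September 1 epithelial marker was called higher and 1 lower, with 14 and 14 of all 300. The part of these lists in the results was not tested.

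Between telogen and May, and between catagen and September, edgeR called none of the members, none had an unadjusted p under 0.05, and DESeq2 called none. Over all tested miRNAs 2.33% were called from telogen to May and 0% from catagen to September. From telogen to May miR-136-3p stood at 0.37 (standard error 0.41) and miR-136-5p at -0.56 (standard error 0.34).

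**Figure D2:**
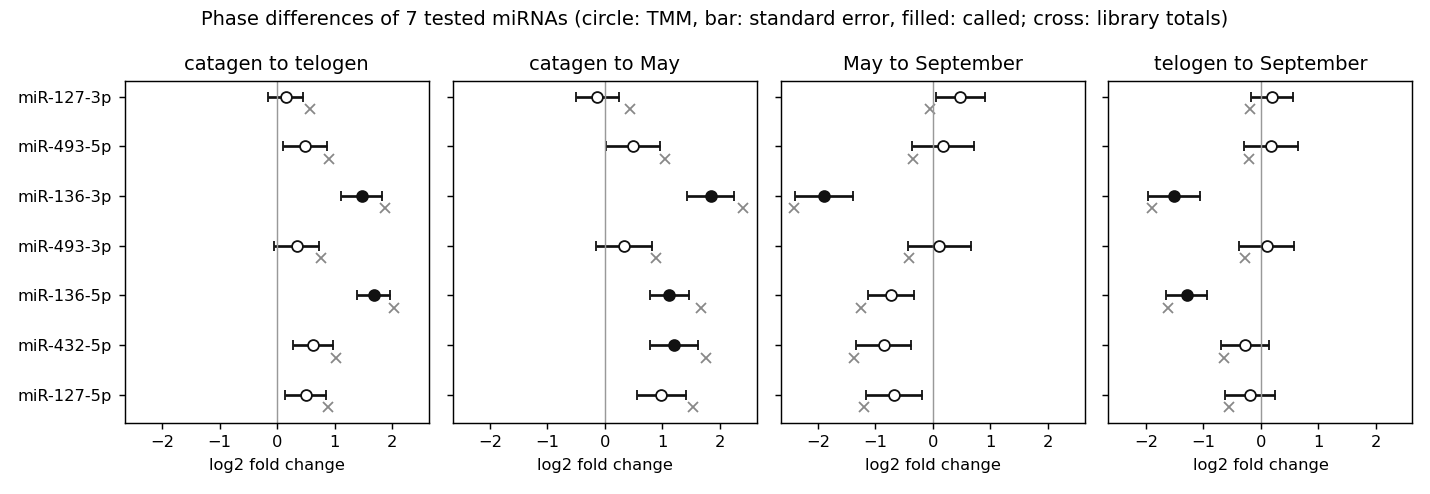
Log2 fold change of the 7 tested members in 4 phase comparisons, with circles for the TMM-normalized fit, bars for 1 standard error, filled circles for calls and crosses for scaling by library totals. The filled circles are those of the miR-136 arms, with miR-432-5p from catagen to May, and within a panel the crosses are shifted to 1 side of the circles for all members alike.

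miR-127, best known for repressing RTL1 in the placenta, did not pass the test in any phase comparison with either arm. Nearest was miR-127-5p from catagen to May (log2 fold change 0.98, standard error 0.42, adjusted p = 0.0826), without overlap of its groups. It was called there with library totals (1.53, adjusted p = 0.0211) and when only these groups were fitted. Its TPM was 4.49 and 9.69 in February (female and male), 4.32 and 16.2 in March and 12.1 and 14.7 in May. It was 5.55 and 6.06 in September, 3.18 and 3.61 in November and 5.56 and 5.82 in December. In telogen the male March library exceeded both May libraries.
miR-127-3p had a TPM of 163 and 255 in February, 141.4 and 555 in March, and 245 and 261 in May. In September it was 220 and 272, in November 165 and 218, and in December 163 and 206.1. By TPM all May and September libraries lay above those of catagen and the other phases overlapped. After TMM normalization May and catagen overlapped, and both September libraries lay above those of May and of catagen. Its log2 difference was 0.48 (standard error 0.43) from May to September and -0.13 (standard error 0.38) from catagen to May. Library totals gave -0.04 and 0.43, a shift about as large as that of the median of all tested miRNAs, so no direction is given for it.
miR-493, at the upstream end of the group, had a TPM of miR-493-5p of 49.8 and 134.25 in February, 45.0 and 214.35 in March, and 125 and 118 in May. In September it was 78.9 and 113, in November 39.9 and 74.0, and in December 49.6 and 72.0. Its log2 fold change was 0.49 (standard error 0.47) from catagen to May and 0.18 (standard error 0.54) from May to September.
miR-493-3p had a TPM of 18.3 and 36.9 in February, 11.6 and 71.1 in March, 33.9 and 41.5 in May, 25.0 and 31.7 in September, 17.1 and 19.3 in November, and 16.9 and 27.4 in December. In telogen the female and male libraries of both miR-493 arms lay on opposite sides of the May values, except for the male February library of miR-493-3p, which lay between them.

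The level of each other member was also expressed relative to miR-127-3p of the same library, which needs no scaling between libraries. This measure was chosen after the values were seen. miR-136-5p amounted to 10.8% to 37.6% of miR-127-3p in telogen and to 3.77% to 8.74% in catagen, with 13.7% and 15.5% in May and 5.68% and 7.07% in September. miR-136-3p amounted to 10.9% to 21.9% in telogen and to 4.04% to 7.79% in catagen, with 21.1% and 26.1% in May and 4.46% and 4.71% in September. Telogen and catagen did not overlap for either arm, with differences of 1.68 and 1.33 on the log2 scale (exact two-sided permutation test, n = 4 libraries each, p = 0.0286 for both, the smallest this design allows, adjusted p = 0.0857 over 6 members). For miR-493-5p, which amounted to 24.2% to 52.6% over the 12 libraries, the difference was 0.29 (exact permutation p = 0.257).

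In telogen both male libraries exceeded both female libraries in 7 of 8 members by TPM, and in 6 of the 7 tested members after TMM normalization, as did 32.7% of all tested miRNAs. The exception was miR-136-5p, with 61.2 and 31.0 in the female and 37.6 and 60 in the male libraries. miR-433 stood at 1.21 (female) and 2.70 (male) in February and at 1.18 and 5.56 in March.
In a fit with female and male telogen and catagen as groups, 4 members were called higher in the male telogen libraries, where 8.67% of all tested miRNAs were called higher. They were miR-493-5p (3.14-fold, log2 fold change 1.65, standard error 0.22, adjusted p = 0.00108), miR-493-3p (3.05-fold, 1.61, standard error 0.32, adjusted p = 0.00834), miR-127-5p (2.50-fold, 1.32, standard error 0.33, adjusted p = 0.0207) and miR-127-3p (2.26-fold, 1.18, standard error 0.26, adjusted p = 0.0119).
miR-432-5p (log2 fold change 0.96, adjusted p = 0.0499) stayed under the 2-fold limit, and miR-136-3p (1.05, adjusted p = 0.0641) missed the threshold, though it was called with DESeq2, with library totals and with month as a block. The log2 fold change of miR-136-5p was -0.15 (standard error 0.37), and 0.08 with library totals.

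By TPM the male-to-female ratio was highest in March for 7 of the 8 members, and after TMM normalization miR-432-5p was an exception too, with December above March. The male-to-female ratio of TPM was 6.14 for miR-493-3p, 4.77 for miR-493-5p and 3.93 for miR-127-3p in March, and 2.02, 2.70 and 1.57 in February. Without the male March library, or without the female March library, the call of miR-493-5p was kept (log2 fold change 1.47 at the lowest) and the other 3 were lost. The log2 fold change of miR-127-3p was then 0.71 and 0.99, that of miR-493-3p 1.25 and 1.24. The call of miR-127-5p was also lost without the female February library (1.40), and without the male February library all tested members but miR-136-5p were called. In such a fit a telogen sex has 1 library, which is assumed to vary like the other groups.
The marker lists also differed between the telogen libraries of each sex. The epithelial list summed to 58000 and 65000 in the female and 79600 and 96900 in the male libraries, and the erythrocyte list (miR-451-5p and miR-144-5p) to 27.9 and 28.2 against 52.3 and 115. The endothelial list (both arms of miR-126) was at 12000 and 12700 against 9020 and 9990. The dermal list overlapped, at 123000 and 147000 against 124000 and 139000. So did the leukocyte list (509 and 664 against 442 and 528) and the skeletal muscle list (3220 and 3610 against 1900 and 3350). No single marker of these lists was called between the sexes in telogen. The part of these markers in the results was not tested.

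In catagen edgeR called no member between the sexes, 2 had an unadjusted p under 0.05, and DESeq2 called none, with 0% of all tested miRNAs called. Without overlap, the male libraries were higher in 5 of the 7 tested members after TMM normalization, against 15.3% of all tested miRNAs. The epithelial list ran the other way there (85000 and 94600 in female, 68000 and 70500 in male libraries), while the endothelial (8820 and 9620 against 10100 and 11600) and leukocyte lists (393 and 443 against 492 and 540) were higher in the male libraries. Their part was not tested. The log2 fold changes were 1.02 (standard error 0.36) for miR-432-5p and 0.72 (standard error 0.22) for miR-493-5p. The sex difference in telogen was then set against that in catagen, where 3.33% of tested miRNAs were called. No member passed with edgeR or DESeq2, and 3 had an unadjusted p under 0.05. The difference was 1.19 (standard error 0.50, adjusted p = 0.175) for miR-127-5p, 1.13 (0.45, 0.157) for miR-493-3p and 0.93 (0.31, 0.0965) for miR-493-5p. Telogen and catagen are therefore not shown to differ in this respect. Without the male February library 3 members passed, namely miR-127-3p, miR-493-3p and miR-493-5p.

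Over all months, with month as a term, edgeR and DESeq2 called no member between the sexes, at 0% of all tested miRNAs, and 5 had an unadjusted p under 0.05. The log2 fold changes were 0.83 (standard error 0.24, adjusted p = 0.267) for miR-493-5p and 0.73 (standard error 0.20, adjusted p = 0.267) for miR-432-5p. For miR-136-5p it was 0.01 (standard error 0.25). After TMM normalization 5 of the 7 tested members, both miR-127 arms, miR-136-3p, miR-432-5p and miR-493-3p, were higher in the male library in 6 of 6 months, and 3.67% of all tested miRNAs were. miRNAs of one locus and library are not independent of each other. By TPM, miR-136-3p was higher in the male library in 5 months only.

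**Figure D3:**
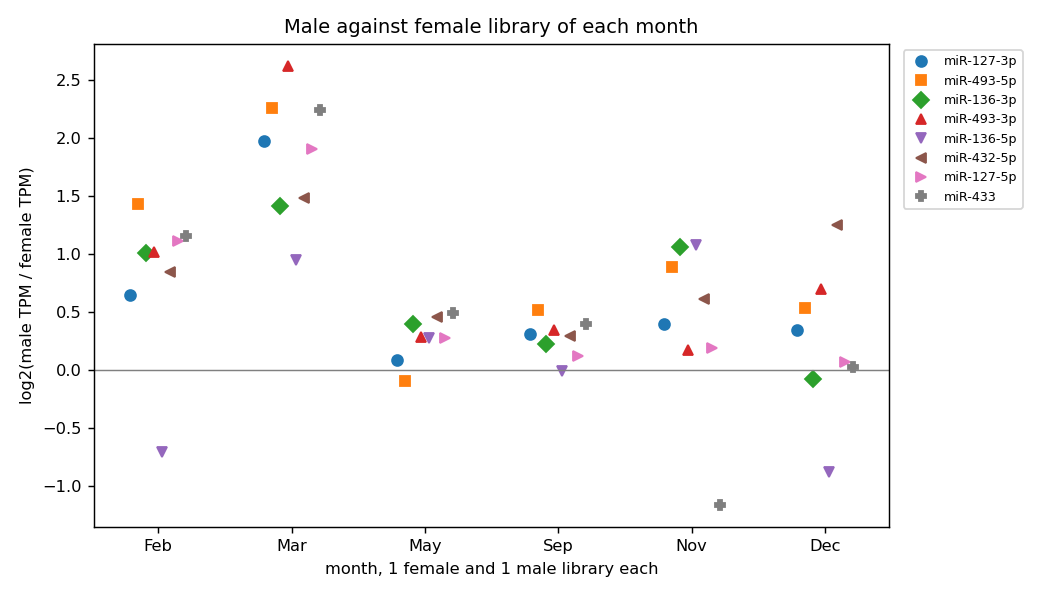
Log2 ratio of the TPM of the male to the female library in each month for the 8 members, with a line at 0 for equal values. All members lie above 0 in March and all but miR-136-5p in February, the March values are the highest for 7 of the 8, and the low November point of miR-433 rests on few counts.

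The arms of the 3 precursors with both arms listed were compared within each library, where the size of the library cancels. miR-127 was dominated by its 3p arm, with 31.4 times the mean TPM of the 5p arm. miR-493 was dominated by its 5p arm in all 12 libraries, with 3.18 times the 3p arm. miR-136 had about equal arms, the 5p arm holding more counts in 7 libraries.

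The share of the 5p arm in the counts of miR-127 was 4.69% in the female (95% Wilson interval 3.58% to 6.14%) and 5.32% in the male May library (4.01% to 7.02%). In the other 10 libraries it was between 1.62% and 3.66%. These shares rest on 11 to 67 counts of the 5p arm per library, and the intervals cover counting error only. On the log2 scale the ratio of 5p to 3p was -4.96 ± 0.20 in telogen (SD, n = 4) and -5.33 ± 0.45 in catagen (n = 4), with -4.22 ± 0.14 in May (n = 2) and -5.35 ± 0.13 in September (n = 2).
It differed over the 4 phases (adjusted p = 0.014, limma), as did the ratios of 60.9% of the 87 precursors tested. From May to September it changed by -1.13 (standard error 0.33, adjusted p = 0.00929), where 37.9% of precursors were called, and from catagen to May by 1.11 (standard error 0.29, adjusted p = 0.00397), where 41.4% were. The difference over the phases was lost without either May library.

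For miR-136 the female February library had 354 counts of the 5p and 103 of the 3p arm, a 5p share of 77.5% (73.4% to 81.1%). The male February and both March libraries had 42.0% to 51.2%. Both May libraries favoured the 3p arm (5p share of 39.4% and 37.2%), and both September libraries the 5p arm (60% and 56.0%). The intervals of the female February library and of the other 11 libraries did not overlap. Over the phases the ratio did not pass the test (adjusted p = 0.131), and it did when the female February or the male March library was left out. May and September differed in it by 1.14 (standard error 0.50, adjusted p = 0.0724).
The ratio of miR-493 lay between 1.21 and 1.94 on the log2 scale in all 12 libraries and did not pass the test (adjusted p = 0.818). Its group means were 1.70 ± 0.23 in telogen and 1.52 ± 0.30 in catagen, with 1.69 ± 0.27 in May and 1.74 ± 0.13 in September.

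**Figure D4:**
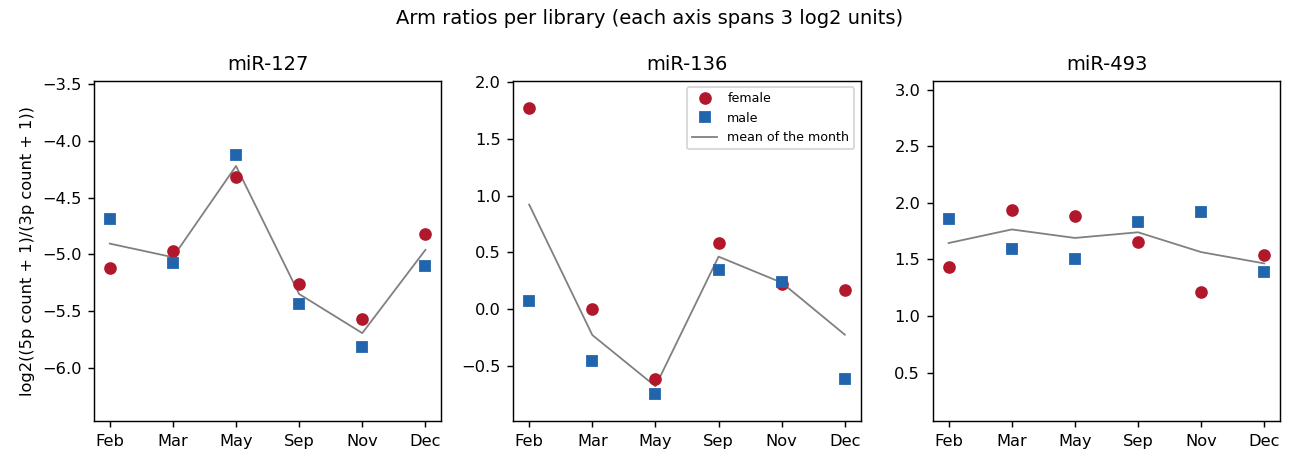
Log2 ratio of 5p to 3p counts (1 added to each) of miR-127, miR-136 and miR-493 in each library, with circles for female and squares for male libraries, a line through the mean of each month, and axes of equal span. The ratio of miR-127 is highest in May, that of miR-136 lies at 1.77 in the female February library, and that of miR-493 stays between 1.21 and 1.94.

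Across the 12 libraries, the pattern of log2 CPM of miR-127-3p was most like that of miR-379-5p (Pearson r 0.94), the first miRNA of the distal cluster, followed by miR-493-3p (0.89), miR-493-5p (0.86), miR-382-3p and novel_130 (0.72 each). Those most like miR-136-5p were miR-455-5p (0.83), miR-15a-5p (0.81), miR-376c-3p (0.80), miR-22-5p (0.79) and miR-216b (0.79). Among the members, r was 0.92 between the miR-493 arms, 0.87 between miR-127-5p and miR-432-5p, 0.71 between the miR-136 arms, 0.54 between the miR-127 arms and -0.00 between miR-127-3p and miR-136-5p. These values describe 12 libraries that share phases and sexes. Without the male March library miR-127-3p stood at 0.88 with miR-379-5p, 0.80 with miR-493-5p, 0.44 with miR-382-3p, 0.26 with its own 5p arm and -0.45 with miR-136-5p.

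The distal part of the locus, from miR-379 to miR-656, had 36 listed miRNAs, of which 25 were tested. From catagen to telogen 7 of them rose and none fell, where 6.33% of all tested miRNAs were called higher. The median log2 fold change was 0.84 against 0.50 for the 7 members and 0.00 for all tested miRNAs. The largest were miR-544-5p (1.72), miR-369-3p (1.51), miR-409-3p (1.41) and miR-411b-5p (1.38). From catagen to May 11 rose and none fell, where 7.67% of all tested miRNAs were called higher. The median was 1.28 against 0.98 for the members and -0.08 for all. From May to September 8 fell and none rose, where 8.67% of all tested miRNAs were called lower. From telogen to September 2 fell, miR-376c-3p (-1.38) and miR-376e-3p (-1.13), where 4.67% of all tested miRNAs were called lower. Comparisons that share a phase share its libraries. Between the sexes in telogen 10 distal miRNAs were called higher in the male libraries, where 8.67% of all tested miRNAs were. The distal calls were led by miR-409-5p (2.33), miR-382-5p (1.82), miR-494 (1.74) and miR-411a-3p (1.53). The distal median was 1.30 against 1.18 for the members and 0.05 for all tested miRNAs. Most of the 10 distal calls were lost without the male March library, which leaves 1 male telogen library. The median was then 0.83 for the 23 distal miRNAs tested. It was 0.84 for the members and 0.12 for all tested miRNAs. From catagen to telogen without the male March library, 4 of 23 distal miRNAs were called higher, with a median of 0.51. Of all 295 miRNAs tested in that fit 15 were called higher. A difference between the proximal and the distal miRNAs was not tested.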

How the data were processed

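Per the labels and the study's methods, total RNA of dissected SHFs was made into small RNA libraries with an NEBNext kit and sequenced on an Illumina instrument. Adapters were trimmed by the authors, who used CHIR_2.0 as the genome, miREvo and mirDeep2 to find miRNAs and Bowtie 0.12.9 for quantification. They deposited a raw count and a TPM per miRNA and library. The deposited TPM equals the scaled count to within 0.00499. How reads that match several miRNAs were assigned is not given in the sources used here.

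Counts were tested in R 4.3.3 with edgeR 4.0.16 (TMM, glmQLFit, glmQLFTest), for miRNAs with more than 5 CPM in at least 2 libraries, in fits of all 12 libraries. Phase groups were the terms in the phase comparisons, phase with sex in telogen and catagen, and month with sex over all months. P-values were adjusted by Benjamini-Hochberg over the 300 tested miRNAs, and a call also required a 2-fold change. The standard error was obtained from each log2 fold change and its F statistic. Arm ratios were tested with limma 3.58.1 for precursors with a mean of at least 10 counts in each arm. Alternatives were DESeq2 1.42.0, other normalizations and filters, blocks, and libraries left out. Tests were checked on simulated counts.

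Libraries of a group differed by at least 70.0 times the chi-square expected from sampling, so none was taken for a repeat. The name rule and the lists were chosen with earlier results of these data known. All 8 members are named, with values per library for the 5 most abundant and for those called. The values of miR-433 and the level relative to miR-127-3p, and the distal counts and correlations without the male March library, were added after values were seen. Likeness is the Pearson correlation of log2 CPM with a prior count of 1 for miR-127-3p and miR-136-5p, and distal miRNAs are named up to 4 per comparison by size of change among those called.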

Additional observations from a re-analysis of the deposited data

Results flagged for a closer look

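One value stood apart from its group by Dixon's criterion. The log2 ratio of miR-136-5p to miR-136-3p counts was -0.62 in the male December library, against 0.16 to 0.24 in the other 3 catagen libraries, and the gap made up 0.911 of the range of the group, above the 95% critical value for 4 libraries. It rests on 40 counts of the 5p and 62 of the 3p arm. In all, 22 groups of 4 libraries were examined for the members and their arm ratios, and chance alone flags about 1 in 20.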

How the results depend on the processing

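Between telogen and May, catagen and September, the sexes in catagen and the sexes over all months, the count of members called stayed at 0 under every alternative run. From catagen to telogen it was 2 with DESeq2, RLE, library totals and the block by sex, and 2 to 3 when 1 library was left out. Library totals gave 2 calls from May to September, where TMM gave 1, and fitting only the compared groups gave 0 from telogen to September in place of 2. With 1 library left out, the calls ranged from 0 to 1 from May to September, from 1 to 2 from catagen to May, from 0 to 2 from telogen to September, from 1 to 6 between the sexes in telogen and from 0 to 3 for the sex difference in telogen against that in catagen. For the arm ratios they ranged from 0 to 2, and requiring a mean of 50 counts per arm left 0 in place of 1, since miR-127 then was not tested. The replicate block by sex gave 1, 2, 3 and 2 calls in the phase comparisons that had any, as without it, and the block by month gave 5 in place of 4 between the sexes in telogen, adding miR-136-3p. Deviations of libraries from their phase means correlated at a mean of 0.07 for the same sex (11 of 26 pairs over 0.1). For libraries of the other sex the mean was -0.07 (3 of 26 pairs over 0.1). Deviations within a phase cancel, so these means mirror each other and do not settle whether sex pairs the libraries. Relative to miR-127-3p, a measure chosen after seeing the data, neither miR-136 arm passed after adjustment (adjusted p = 0.0857), which 4 against 4 libraries could not reach over 6 members unless 4 of them had the smallest p. No fold change of a called member changed direction with DESeq2, RLE, library totals, blocks or 1 library left out. Directions under other filters and in fits of only the compared groups were not all recorded. Depth limits miR-433 and the shares of miR-127-5p, and the 2 libraries each of May and September limit the comparisons with these months.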
